A study of Mus musculus with 12 samples.

Results

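The proneural and neuronal basic helix-loop-helix (bHLH) factors are a family of transcription factors that turn progenitors into neurons. The 8 members Neurog1, Neurog2, Atoh1, Neurod1, Neurod4, Neurod6, Nhlh1 and Nhlh2 were chosen by gene symbol, and all 8 were measured, each by 1 probe set, among 18784 genes with a symbol on the array. RNA was measured on 12 Affymetrix mouse gene arrays, 3 for each of 4 groups: neural progenitor cells (NPC) with an shRNA against Jarid1b, NPC with a scrambled control shRNA, embryonic stem cells (ESC) with the Jarid1b shRNA, and ESC with the scrambled shRNA. All groups derive from 1 feeder-independent mouse ESC line (E14TG2a.4) grown with LIF and serum, and all carry a PLKO.1 lentiviral shRNA and were selected with puromycin. NPC were made from such cells by a published protocol. The labels name 1 Jarid1b construct and no untransduced cells. Whether replicates came from separate transductions or cultures is not stated, and p-values therefore reflect the spread among these arrays alone, possibly a technical one.

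Factors of this family bind DNA as dimers with the broadly expressed E proteins Tcf3, Tcf4 and Tcf12, at short sites called E-boxes with the letters CANNTG. Proneural factors such as the neurogenins and Atoh1 commit progenitors to a neuronal fate, and switch on later factors of the Neurod and Nhlh groups, which act in differentiating neurons. The Id proteins, which lack a DNA-binding region, capture the E proteins, and the Hes and Hey repressors, induced by Notch signalling, hold proneural genes down in progenitors. Jarid1b, now named Kdm5b, is an enzyme that demethylates histone H3 at lysine 4, where methylation marks active promoters.

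The promoters of the 2 members called in a knockdown comparison (Neurod1 and Atoh1) and of both Nhlh genes, the only members with the letters CAGATG in this window, are shown to let their base composition and E-boxes be compared. Sequences are from RefSeq (GRCm38.p6), cover the 250 bases before the transcript start, and run 5′ to 3′ on the gene's strand, with capitals marking CANNTG, which reads the same on both strands.
Neurod1 (chr2:79456637-79456886, - strand): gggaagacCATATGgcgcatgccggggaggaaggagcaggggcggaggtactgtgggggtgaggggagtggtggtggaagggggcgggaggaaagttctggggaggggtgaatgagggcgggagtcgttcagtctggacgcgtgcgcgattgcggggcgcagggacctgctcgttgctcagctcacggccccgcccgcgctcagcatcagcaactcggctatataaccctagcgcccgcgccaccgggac
Atoh1 (chr6:64728875-64729124, + strand): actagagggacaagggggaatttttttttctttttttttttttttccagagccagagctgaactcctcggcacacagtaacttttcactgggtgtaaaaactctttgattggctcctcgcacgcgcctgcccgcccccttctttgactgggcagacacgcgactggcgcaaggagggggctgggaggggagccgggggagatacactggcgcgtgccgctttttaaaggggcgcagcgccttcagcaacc
Nhlh1 (chr1:172057597-172057846, - strand): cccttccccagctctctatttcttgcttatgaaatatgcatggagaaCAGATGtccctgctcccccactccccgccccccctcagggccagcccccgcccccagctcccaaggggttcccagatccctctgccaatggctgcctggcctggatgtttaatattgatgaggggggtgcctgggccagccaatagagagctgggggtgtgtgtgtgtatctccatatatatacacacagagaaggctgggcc
Nhlh2 (chr3:102009895-102010144, + strand): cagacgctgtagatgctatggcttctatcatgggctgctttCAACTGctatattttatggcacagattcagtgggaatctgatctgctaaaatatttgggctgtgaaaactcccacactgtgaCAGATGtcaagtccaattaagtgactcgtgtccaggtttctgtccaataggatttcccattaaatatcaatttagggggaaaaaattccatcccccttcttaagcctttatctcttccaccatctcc

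In the same window CANNTG was present 1 time in Neurod1 and Nhlh1 and 2 times in Neurod6 and Nhlh2. It was in none of the windows of Neurog1, Neurog2, Atoh1 and Neurod4, the last with 2 listed starts. Of all 32851 promoters in the table, 66.2% held it. The narrower form CAGATG or its reverse CATCTG, which overlaps CANNTG, was in Nhlh1 and Nhlh2 and in 14.4% of all promoters. The form CAGCTG was in no member and in 13.0% of all. CpG dinucleotides numbered 29 in Neurog1, 22 in Neurod1, 14 in Atoh1 and 8 in Neurog2. Over all promoters the median was 6.0 and the quartiles were 2.0 and 16.0, so only Neurog1 and Neurod1 lay above the upper quartile. The other windows held fewer than Neurog2, with 2 and 7 at the 2 starts of Neurod4, 3 in Neurod6, 2 in Nhlh1 and 2 in Nhlh2. A match is a run of letters and not a measured binding site.

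Values are log2 RMA values, with array medians between 7.7 and 7.79 and lower and upper quartiles of 5.84 to 6.11 and 9.52 to 9.66. Kdm5b checked the labels. It read 10.38, 10.48 and 10.54 in knockdown NPC, against 11.24, 11.15 and 11.30 in control NPC. In knockdown ESC it read 10.64, 10.90 and 10.50, against 12.25, 12.47 and 12.50 in control ESC. Both falls passed limma's test (adjusted p = 0.00524 in NPC and 1.82e-05 in ESC). Every array with the Jarid1b shRNA was thus below every control array of its state, while Kdm5b stayed in the upper part of the scale. Neural progenitor markers fitted the NPC label, with 12 of 12 higher in NPC than in ESC with either shRNA and a mean of 11.13 to 11.35 on NPC arrays against 8.25 to 8.65 on ESC arrays. Neuron markers averaged 10.01 to 10.33 on NPC arrays against 8.20 to 8.69 on ESC arrays, with 11 of 12 higher in NPC with either shRNA. The exception was Stmn2, at 10.95 in knockdown and 11.14 in control NPC, against 12.47 and 12.51 in ESC. Pluripotency markers averaged 6.63 to 8.27 on NPC arrays and 12.32 to 12.49 on ESC arrays.

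The first question was which factors come on between ESC and NPC. In this comparison 7 of the 8 members rose in knockdown cells and the same 7 rose in control cells, while Neurod6 did not pass the test in either. Over all genes 48.8% were called in knockdown cells (23.8% higher, 25% lower) and 48.6% in control cells (23.5% higher, 25.1% lower). Arrays of the states did not overlap for the same 7 members, all higher in NPC, beside 28.5% of genes higher and 33.9% lower in knockdown cells and 24.5% and 27.8% in control cells. Neurod6 also did not overlap in control cells, where it was lower in NPC. The median difference over the 8 members was 2.59 in knockdown and 2.57 in control cells, beside -0.068 and -0.042 over all genes. In bulk RNA, fewer cells of a type and less RNA per cell cannot be told apart. Tests are from limma. P-values were adjusted by Benjamini and Hochberg's method across 18784 genes, with 0.05 as the threshold for the words rose and fell.

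**Figure D1:**
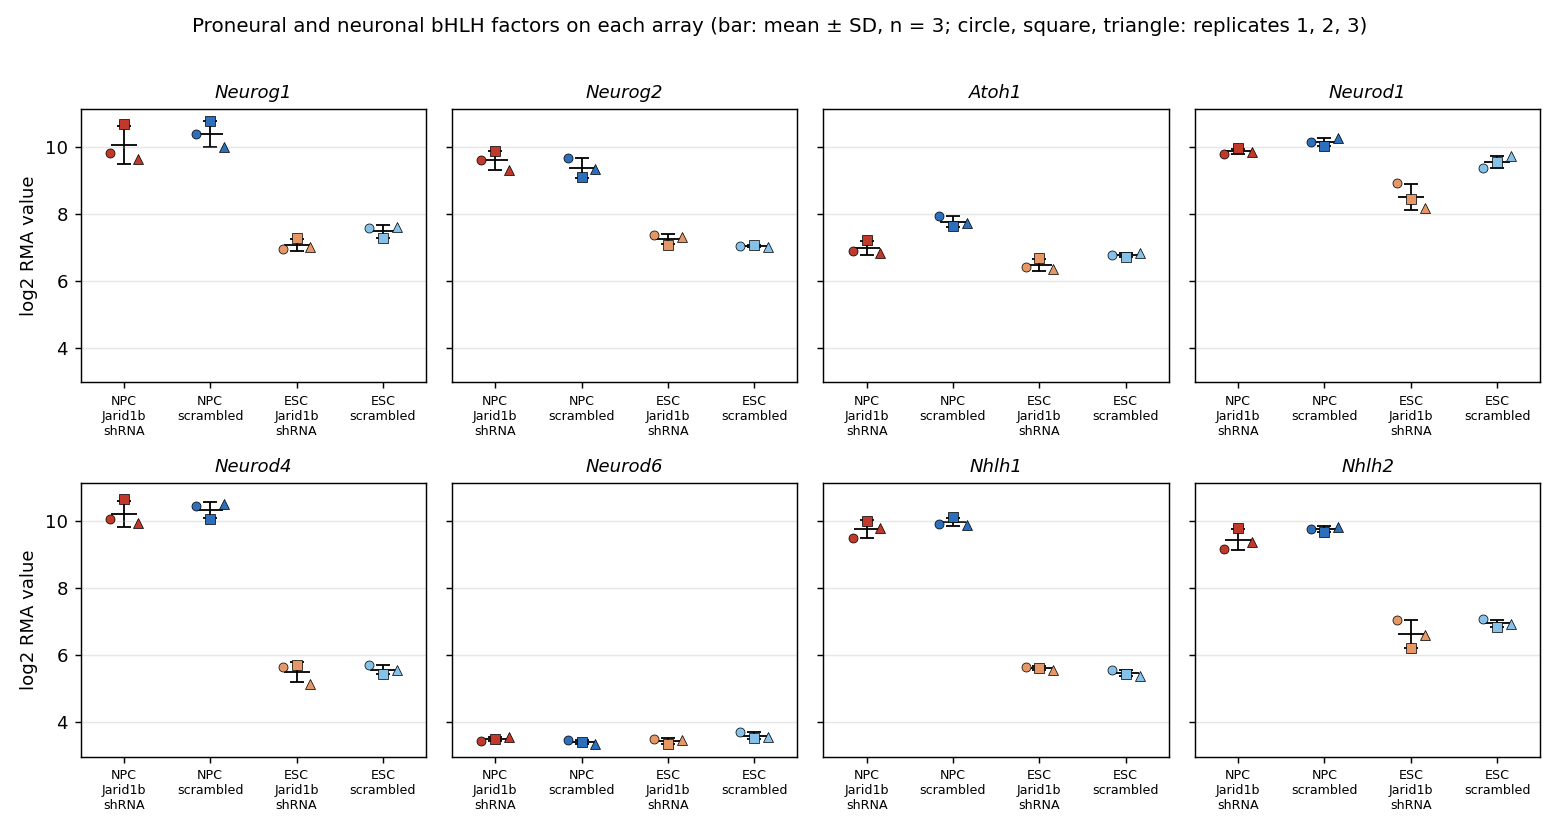
Log2 RMA value (vertical axis) of the 8 factors on each of 12 arrays, by group (horizontal axis); points are arrays and bars are the mean ± SD of 3. For 7 factors every NPC array lies above every ESC array of the same shRNA, while Neurod6 lies between 3.34 and 3.71 everywhere.

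Neurog1 (Entrez gene 18014), a determination factor of sensory ganglia and other neurons, read 9.83, 10.69 and 9.65 in knockdown NPC, against 6.95, 7.28 and 7.0 in knockdown ESC. With the scrambled shRNA it read 10.37, 10.77 and 10 in NPC, against 7.57, 7.26 and 7.61 in ESC. The NPC and ESC arrays were thus more than 2 log2 units apart with either construct. The differences were 2.98 ± 0.24 (SE, adjusted p = 3.22e-07) in knockdown cells, or 7.88-fold, and 2.90 ± 0.24 (SE, adjusted p = 3.67e-07) in control cells, or 7.47-fold.

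Neurog2 (Entrez gene 11924), which drives neurogenesis in the dorsal forebrain and elsewhere, read 9.60, 9.87 and 9.32 in knockdown NPC, against 7.37, 7.07 and 7.29 in knockdown ESC. The control arrays read 9.66, 9.08 and 9.34 in NPC, against 7.03, 7.06 and 7.01 in ESC. The control ESC arrays lay within a few hundredths of each other, below all NPC arrays. The rises were 2.35 ± 0.16 (SE, adjusted p = 4.05e-08, 5.11-fold) and 2.33 ± 0.16 (SE, adjusted p = 4.24e-08, 5.02-fold).

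Atoh1 (Entrez gene 11921), the proneural factor of cerebellar granule cells, dorsal spinal interneurons and inner ear hair cells, had a smaller difference between the states. It read 6.87, 7.23 and 6.83 in knockdown NPC, against 6.41, 6.69 and 6.36 in knockdown ESC. In control cells it read 7.94, 7.62 and 7.73 in NPC, against 6.78, 6.72 and 6.82 in ESC. Neither pair of groups overlapped, but the knockdown groups lay close together. The rise was 0.49 ± 0.13 (SE, adjusted p = 0.00523, 1.41-fold) in knockdown cells and 0.99 ± 0.13 (SE, adjusted p = 1.79e-05, 1.99-fold) in control cells.

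Among the Neurod genes, Neurod4 (Entrez gene 11923), which acts in retinal and hindbrain neurogenesis, had the largest difference of the 8 members. It read 10.05, 10.66 and 9.95 in knockdown NPC, against 5.63, 5.71 and 5.14 in knockdown ESC. With the scrambled shRNA it read 10.44, 10.07 and 10.50 in NPC, against 5.71, 5.44 and 5.55 in ESC. Every ESC value was under its array's lower quartile, and every NPC value was over its array's upper quartile. The differences of 4.72 ± 0.19 (SE, adjusted p = 5.82e-10, 26.4-fold) and 4.77 ± 0.19 (SE, adjusted p = 5.03e-10, 27.3-fold) are rough in size, since RMA compresses values near the floor.

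Neurod1 (Entrez gene 18012), a factor of neuronal differentiation and of pancreatic endocrine cells, stood out by its level in ESC. Of the 8 members, it was the only one above the array median on all 6 ESC arrays. It read 9.79, 9.95 and 9.84 in knockdown NPC, against 8.92, 8.43 and 8.16 in knockdown ESC. In control cells it read 10.13, 10.02 and 10.26 in NPC, against 9.38, 9.54 and 9.73 in ESC. The NPC arrays of both constructs lay between 9.79 and 10.26, while the ESC arrays of the 2 constructs lay further apart. The rise was 1.36 ± 0.16 (SE, adjusted p = 9.43e-06, 2.56-fold) in knockdown cells and 0.58 ± 0.16 (SE, adjusted p = 0.00773, 1.5-fold) in control cells.

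Neurod6 (Entrez gene 11922), a factor of differentiated cortical pyramidal neurons, lay between 3.34 and 3.71 on all 12 arrays. This is below the 5th percentile of each array's own values, which was 3.89 to 4.05, and the array gives no detection call to tell such a value from absence. The NPC minus ESC difference was 0.061 ± 0.086 (SE, adjusted p = 0.589) in knockdown cells and -0.19 ± 0.086 (SE, adjusted p = 0.0872) in control cells. The 95% intervals were -0.12 to 0.25 and -0.38 to -0.0041. With an intensity trend and a robust prior the control difference was called lower in NPC (adjusted p = 0.0483).

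Both Nhlh genes, which are expressed in young neurons that have left the cell cycle, rose. Nhlh1 (Entrez gene 18071) read 9.49, 9.995 and 9.80 in knockdown NPC, against 5.65, 5.62 and 5.54 in knockdown ESC. In control cells it read 9.92, 10.12 and 9.88 in NPC, against 5.57, 5.43 and 5.39 in ESC. Like Neurod4 it lay above the median of every NPC array and below the lower quartile of every ESC array. The differences were 4.16 ± 0.12 (SE, adjusted p = 2.63e-11, 17.8-fold) and 4.51 ± 0.12 (SE, adjusted p = 1.21e-11, 22.8-fold), with sizes rough for the same reason.

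Nhlh2 (Entrez gene 18072), known for its role in hypothalamic neurons, read 9.18, 9.79 and 9.36 in knockdown NPC, against 7.05, 6.22 and 6.60 in knockdown ESC. In control cells it read 9.77, 9.68 and 9.83 in NPC, against 7.06, 6.84 and 6.92 in ESC. The knockdown arrays were more spread than the control arrays in both states, with SDs of 0.32 and 0.41 against 0.077 and 0.11. The rises were 2.82 ± 0.19 in both knockdown cells (SE, adjusted p = 4.05e-08, 7.06-fold) and control cells (SE, adjusted p = 3.78e-08, 7.06-fold).

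**Figure D2:**
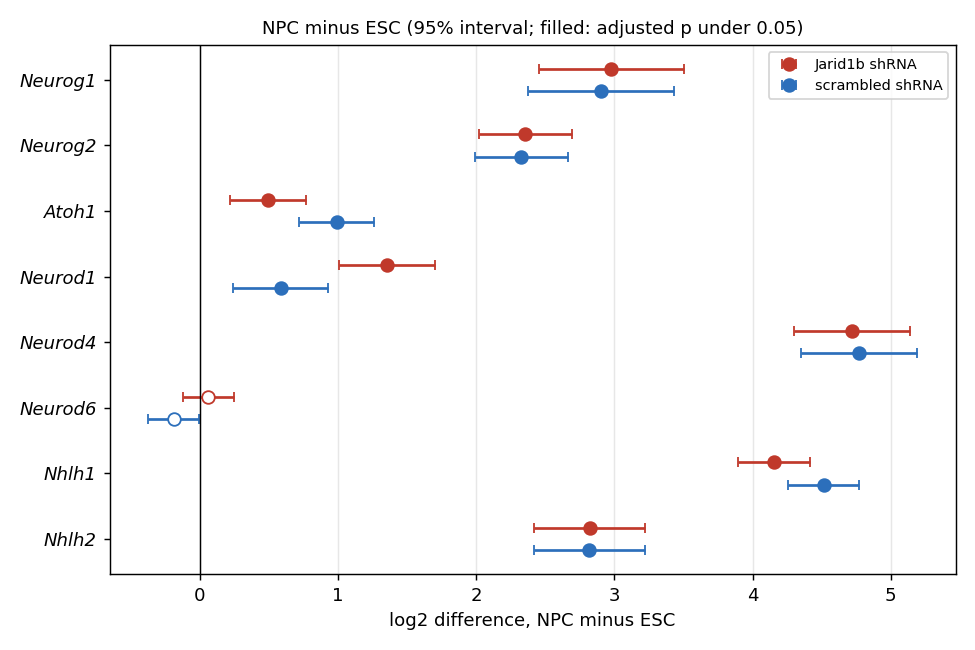
Log2 difference of NPC minus ESC (horizontal axis) for each factor, in Jarid1b shRNA and scrambled shRNA cells; points are differences of 3 arrays and 3, bars are 95% intervals, and filled points passed the test. Neurod4 and Nhlh1 lie above 4 with either construct, Neurod1 and Atoh1 lie lowest of the 7 that rose, and Neurod6 lies near 0.

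The second question was what the Jarid1b shRNA did to these factors in ESC. Neurod1 fell and the other 7 members did not pass the test, beside 5.21% of all genes called, 3.37% that fell and 1.84% that rose. The arrays of Neurod1 given above, 8.92, 8.43 and 8.16 in knockdown ESC against 9.38, 9.54 and 9.73 in control ESC, did not overlap. The difference was -1.05 ± 0.16 (SE, adjusted p = 0.00446), or 2.07-fold lower. It was called after leaving out any 1 array, with adjusted p from 0.000951 to 0.0310. Groups also did not overlap for Atoh1 and Neurod6, which were lower, and for Neurog2, which was higher. Over all genes 13.6% were lower and 10.6% higher in this way, and none of these 3 passed the test. Atoh1 averaged 6.48 ± 0.18 in knockdown ESC and 6.77 ± 0.051 in control ESC (SD, n = 3 each), a difference of -0.29 ± 0.13 (SE, adjusted p = 0.230).

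The 7 uncalled differences in ESC had adjusted p from 0.230 to 0.893, and their 95% intervals together ran from -0.93 (Neurog1) to 0.55 (Neurog2). A fall of that size in Neurog1 thus lies within its interval. The interval of Atoh1 ran from -0.56 to -0.016, below 0, though intervals are not adjusted across genes. Neurod4 and Nhlh1 were below the lower quartile in ESC, where RMA compresses differences. Marker counts in knockdown ESC stand beside 1.84% of all genes that rose and 3.37% that fell. Of the neuron markers, 0 rose and 3 fell of 12, with a mean of 8.20 to 8.45 against 8.49 to 8.69 on control arrays. Of the neural progenitor markers 1 rose and 3 fell of 12, at 8.25 to 8.39 against 8.48 to 8.65. Of the pluripotency markers 0 rose and 0 fell of 10, at 12.44 to 12.49 against 12.32 to 12.34. The part of these shifts in the fall of Neurod1 was not tested.

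**Figure D3:**
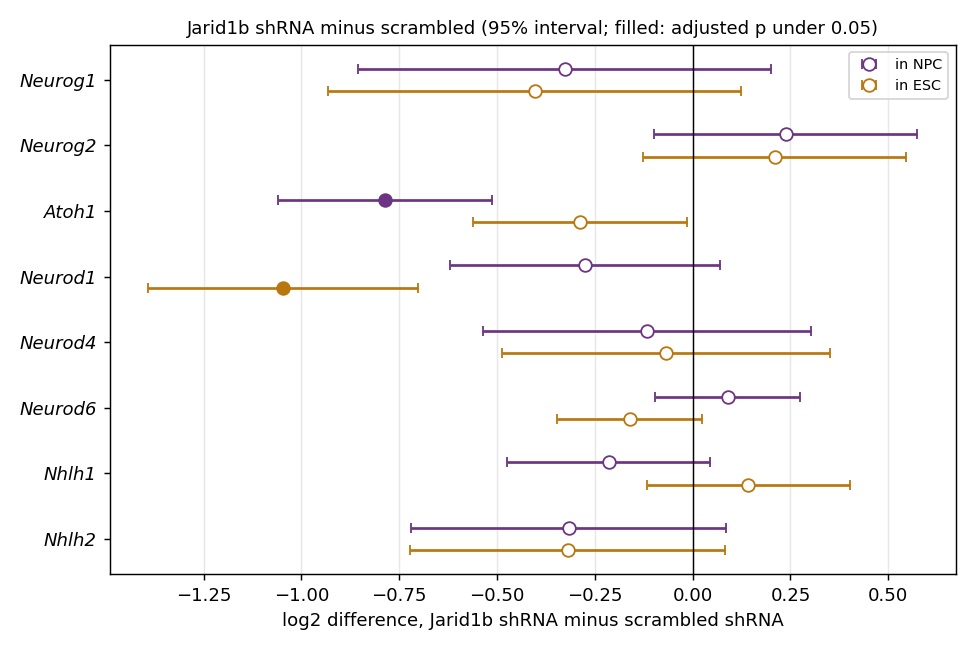
Log2 difference of Jarid1b shRNA minus scrambled shRNA (horizontal axis) for each factor, in NPC and in ESC; points are differences of 3 arrays and 3, bars are 95% intervals, and filled points passed the test. Only Atoh1 in NPC (-0.79) and Neurod1 in ESC (-1.05) are filled.

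In NPC the same comparison gave a fall of Atoh1, and the other 7 members did not pass the test. Over all genes 1.03% were called, 0.213% that fell and 0.82% that rose. Atoh1 read 6.87, 7.23 and 6.83 in knockdown NPC, against 7.94, 7.62 and 7.73 in control NPC. The groups did not overlap. The lowest knockdown NPC array (6.826) was barely above the highest control ESC array (6.817), and these 2 groups were not compared by a test. The difference was -0.79 ± 0.13 (SE, adjusted p = 0.00962), or 1.72-fold lower. It missed the threshold without knockdown NPC replicate 1 (-0.74, adjusted p = 0.0528) and in a fit of the 6 NPC arrays alone (adjusted p = 0.0783). Under the other alternatives the adjusted p lay between 0.00623 and 0.0357.

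Neurod1 arrays also did not overlap in NPC, at 9.79 to 9.95 in knockdown and 10.02 to 10.26 in control cells, where 5.91% of all genes were lower and 8.3% higher in this way. Its difference of -0.27 ± 0.16 (SE, adjusted p = 0.702) was not called. The 7 uncalled differences in NPC had adjusted p from 0.671 to 0.956 and 95% intervals that together ran from -0.85 (Neurog1) to 0.57 (Neurog2). Neurod4 averaged 10.22 ± 0.38 in knockdown NPC and 10.33 ± 0.24 in control NPC (SD, n = 3 each), and its interval was -0.54 to 0.30. Over the 8 members the median difference was -0.24 in NPC and -0.22 in ESC, beside 0.0037 and 0.017 over all genes. Neurog2 was higher on average in both states, by 0.24 ± 0.16 in NPC and 0.21 ± 0.16 in ESC (SE), without a call.

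Other cell markers moved in knockdown NPC beside Atoh1, where 0.82% of all genes rose and 0.213% fell. Of the pluripotency markers 4 rose and 0 fell of 10, with a mean of 7.40 to 8.27 on knockdown arrays against 6.63 to 7.20 on control arrays. Of the endothelial markers 0 rose and 4 fell of 8, at 6.10 to 6.49 against 7.0 to 7.99. Of the neural progenitor markers (12), neuron markers (12), astrocyte and oligodendrocyte markers (10), mesoderm and fibroblast markers (10) and endoderm markers (8), 0 rose and 0 fell. Some of these lists still shifted in mean. Mesoderm markers averaged 7.56 to 7.76 on knockdown against 7.83 to 8.38 on control arrays, with 1 higher and 9 lower. Endoderm markers averaged 7.46 to 7.60 against 7.61 to 7.92, with 4 higher and 4 lower. Glial markers averaged 7.11 to 7.20 against 7.03 to 7.10, with 7 higher and 3 lower. Progenitor and neuron means overlapped. In ESC, where 1.84% of all genes rose and 3.37% fell, the glial list had 0 called of 10. The endothelial and the mesoderm list had 1 higher each there, and the endoderm list had 1 lower. The part of these lists in the fall of Atoh1 was not tested.

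Whether the knockdown effect differed between the states was tested as the effect in NPC minus the effect in ESC. Kdm5b itself fell 1.70-fold in NPC and 3.31-fold in ESC, and the part of this inequality in any difference was not tested. No member was called by limma, beside 1.42% of all genes, though 2 members, Neurod1 and Atoh1, were under 0.05 before adjustment. For Neurod1 the effects of -0.27 in NPC and -1.05 in ESC differed by 0.77 ± 0.23 (SE, 95% interval 0.28 to 1.26, adjusted p = 0.118). It passed the threshold without knockdown ESC replicate 1 (adjusted p = 0.0336) and with array weights (0.0359). For Atoh1 the effects of -0.79 in NPC and -0.29 in ESC differed by -0.50 ± 0.18 (SE, 95% interval -0.88 to -0.11, adjusted p = 0.200). So neither fall was shown to belong to 1 state.

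The lists of partners, inhibitors, upstream regulators and targets give the setting of the 8 factors. Over all genes between NPC and ESC, 23.8% rose and 25% fell in knockdown cells, and 23.5% and 25.1% in control cells. In the knockdown comparison 1.84% rose and 3.37% fell in ESC, and 0.82% and 0.213% in NPC. The 3 E proteins rose in NPC with either construct. Tcf12, for example, rose by 2.07 ± 0.10 in knockdown cells and 2.20 ± 0.10 in control cells (SE), and Tcf4 by 1.44 ± 0.087 and 1.48 ± 0.087. None of the 3 was called in a knockdown comparison, with differences between -0.13 and 0.058. Among the Id, Hes and Hey inhibitors 9 rose and 0 fell of 10 in knockdown cells, and 7 rose and 1 fell in control cells. Id3, Id2 and Id1 rose in knockdown cells by 2.26 ± 0.21, 1.55 ± 0.16 and 0.99 ± 0.21 (SE). In control cells Id2 rose by 0.57 ± 0.16, while Id3 (0.38 ± 0.21, adjusted p = 0.149) and Id1 (-0.45 ± 0.21, adjusted p = 0.0903) were not called (SE). The Notch effector Hey1 rose by 2.00 ± 0.20 in knockdown and 2.38 ± 0.20 in control cells (SE), and Id4 by 1.15 and 1.34. Heyl rose by 0.61 and 1.37 and Hes5 by 1.25 and 1.43, while Hes1 fell in control cells (-0.57 ± 0.18, SE, adjusted p = 0.0181) and read -0.38 ± 0.18 in knockdown cells (SE, adjusted p = 0.0984).

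**Figure D4:**
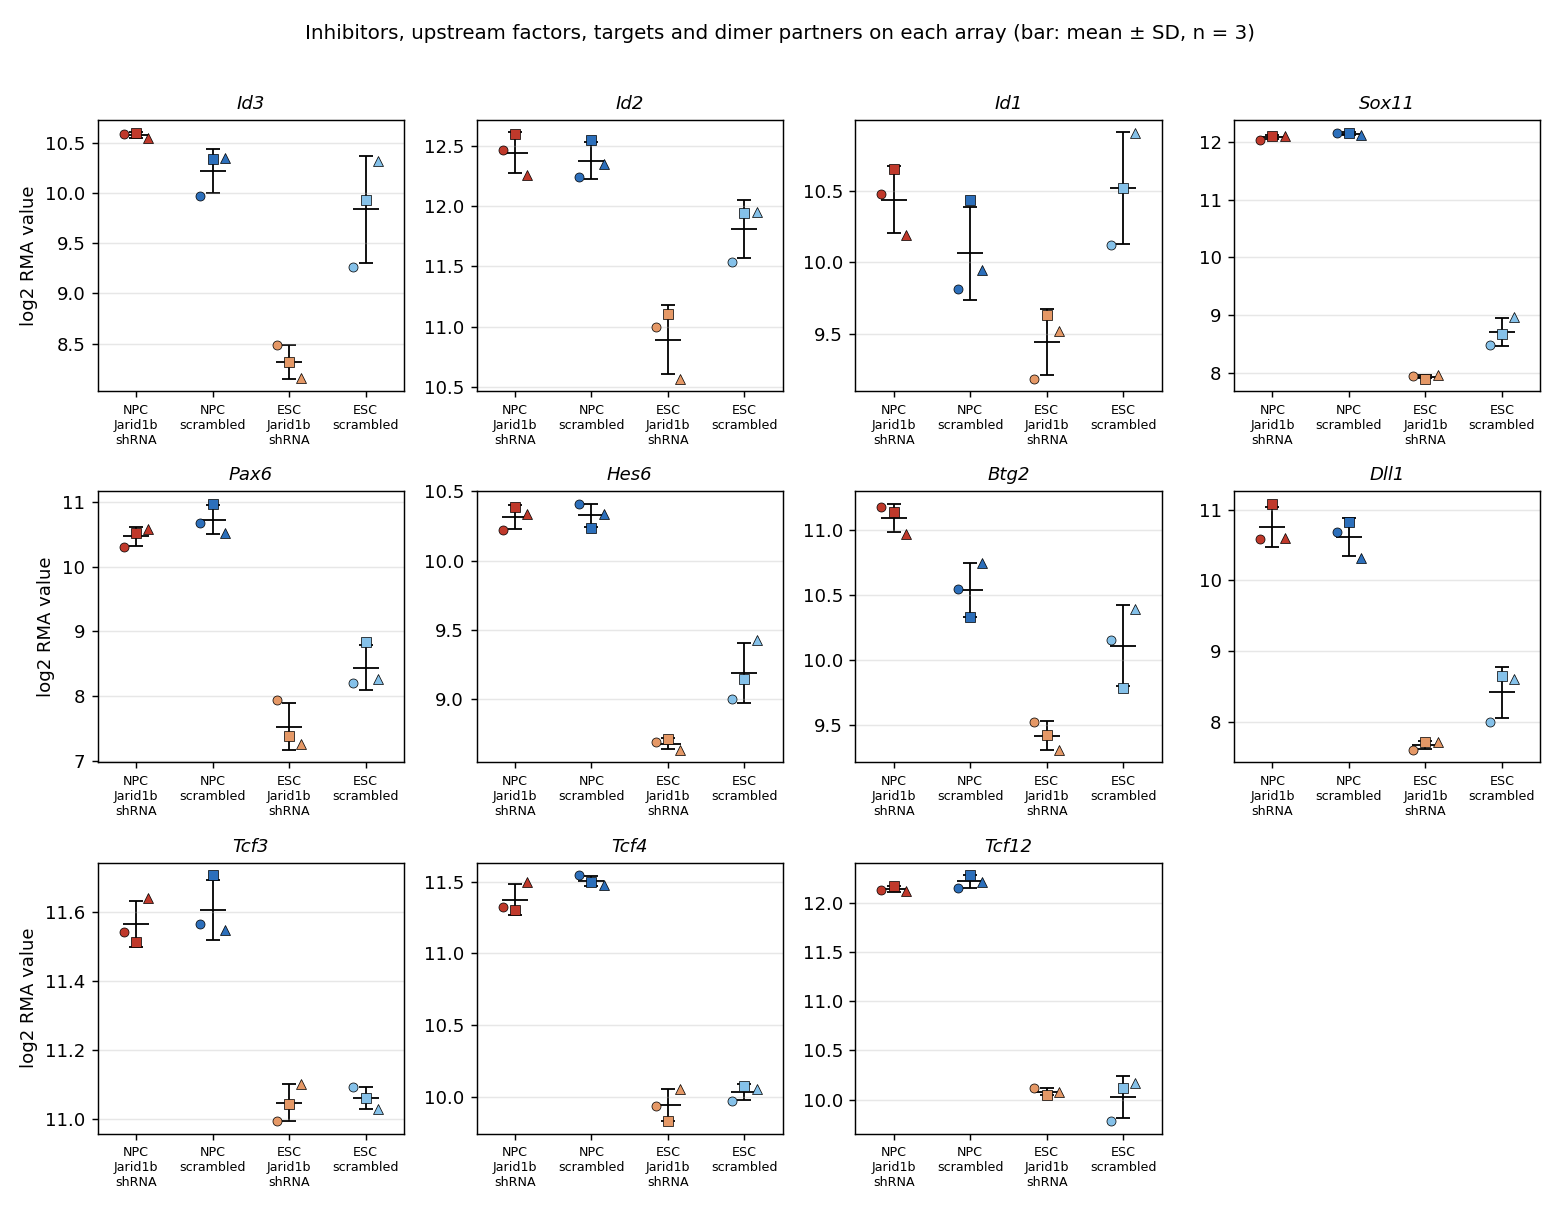
Log2 RMA value (vertical axis, scaled for each gene) on each of 12 arrays, by group, for listed genes called in a knockdown comparison and for the E proteins; points are arrays and bars are the mean ± SD of 3. Id1, Id2 and Id3 are lower on every knockdown ESC array than on every control ESC array, while Tcf3, Tcf4 and Tcf12 are higher in NPC and overlap between constructs in ESC.

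In knockdown ESC 0 of 10 inhibitors rose and 3 fell, beside 1.84% and 3.37% of all genes. The 3 that fell were all Id genes. Id3 read 8.49, 8.32 and 8.15 in knockdown ESC, against 9.27, 9.93 and 10.33 in control ESC. Id1 read 9.19, 9.63 and 9.52, against 10.12, 10.52 and 10.91. Id2 read 11, 11.11 and 10.57, against 11.53, 11.94 and 11.95. Control replicate 1 was the lowest control array for all 3 genes, and the knockdown and control arrays did not overlap. The differences were -1.52 ± 0.21 for Id3 (adjusted p = 0.00298), -1.07 ± 0.21 for Id1 (0.0122) and -0.92 ± 0.16 for Id2 (0.00762, all SE). Id1 missed the threshold when control ESC replicate 3 was left out (adjusted p = 0.0697). In knockdown NPC the same 3 genes were not called, at 0.36 ± 0.21, 0.37 ± 0.21 and 0.065 ± 0.16 (SE).

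Of the upstream regulators 0 rose and 2 fell of 13 in knockdown ESC, beside 1.84% and 3.37% of all genes. Sox11, an early neuronal factor, averaged 7.93 in knockdown ESC and 8.70 in control ESC (-0.77 ± 0.10, SE, adjusted p = 0.00298). Pax6, a regulator of Neurog2 in the forebrain, averaged 7.53 and 8.44 (-0.91 ± 0.20, SE, adjusted p = 0.0197). The Pax6 call was lost without control ESC replicate 2 or 3 (adjusted p = 0.0623 and 0.0605), without knockdown ESC replicate 2 or 3 (0.0746 and 0.0936), and in the 6 ESC arrays alone (0.0585). In knockdown NPC 0 of 13 were called. Between NPC and ESC 10 rose and 3 fell with either construct. The shares over all genes were 23.8% and 25% in knockdown cells and 23.5% and 25.1% in control cells. Sox11 rose by 4.15 ± 0.10 and 3.44 ± 0.10 in knockdown and control cells, and Rest, which represses neuronal genes outside neurons, fell by 1.55 and 1.59 (SE 0.10). Sox4, a relative of Sox11, rose by 2.28 and 2.08, and Gli3, a Hedgehog pathway factor, by 2.62 and 2.31.

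In knockdown ESC 1.84% of all genes rose and 3.37% fell. Of the described targets of proneural factors 0 rose and 3 fell of 29 there. They were the Notch ligand gene Dll1 (7.67 in knockdown and 8.42 in control ESC, -0.75 ± 0.19, SE, adjusted p = 0.0369), Hes6 (8.68 and 9.19, -0.51 ± 0.11, SE, 0.0161), whose product counteracts Hes1, and the growth inhibitor gene Btg2 (9.42 and 10.11, -0.69 ± 0.15, SE, 0.0187). All 3 calls depended on single arrays and were lost in the 6 ESC arrays alone (adjusted p = 0.0510 for Dll1, 0.0568 for Hes6 and 0.0501 for Btg2). Without control ESC replicate 3 or knockdown ESC replicate 3 the adjusted p was 0.178 and 0.108 for Dll1, 0.0820 and 0.0729 for Hes6, and 0.100 and 0.0854 for Btg2. Dll1 was also lost without control ESC replicate 2 (0.120), knockdown ESC replicate 1 (0.104) or 2 (0.0906) and knockdown NPC replicate 3 (0.0501), and Btg2 without knockdown ESC replicate 2 (0.0583). In knockdown NPC 0 of 29 were called.

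Between NPC and ESC 24 targets rose and 3 fell of 29 in knockdown cells, and 23 rose and 3 fell in control cells. Of all genes 23.8% rose and 25% fell in knockdown cells, and 23.5% and 25.1% in control cells. Dcx, which binds microtubules in migrating neurons, rose by 5.16 ± 0.11 and 5.59 ± 0.11, and the transcription factor gene Ebf3 by 4.16 ± 0.11 and 4.25 ± 0.11 (SE). Prdm8 rose by 4.45 ± 0.17 and 4.63 ± 0.17, and the RNA-binding protein gene Elavl4 by 2.29 ± 0.11 and 2.71 ± 0.11 (SE). The 3 that fell with either construct were Stmn2, Eomes and Cbfa2t2, named here after their values were seen. Eomes, a factor of early mesendoderm and of cortical intermediate progenitors, differed by -1.20 in knockdown and -2.26 in control cells.

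Of 9 other bHLH factors of the nervous system that were measured, 5 rose and 1 fell with either construct. The shares over all genes were 23.8% and 25% in knockdown cells, and 23.5% and 25.1% in control cells. Olig3, a factor of dorsal spinal and hindbrain progenitors, rose by 2.08 ± 0.18 in knockdown and 1.90 ± 0.18 in control cells, and Ptf1a, a factor of inhibitory neurons, by 1.88 ± 0.20 and 1.43 ± 0.20 (SE). Atoh8 rose by 1.01 and 0.92, and Olig2 by 0.48 and 0.78. Neurog3, the endocrine relative of the neurogenins, was the 1 that fell (-0.51 ± 0.17 and -0.57 ± 0.17, SE). None of the 9 was called in either knockdown comparison.

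Of the sensory neuron genes 7 rose and 1 fell of 8 measured in knockdown cells, and 6 and 1 in control cells. Of all genes 23.8% rose and 25% fell in knockdown cells, and 23.5% and 25.1% in control cells. The neurotrophin receptor gene Ntrk3 rose by 2.8 ± 0.14 and 2.75 ± 0.14, and the sensory factor Pou4f1 by 1.26 ± 0.098 and 1.18 ± 0.098 (SE). Ntrk2, a receptor of the same family, rose by 2.12 and 2.14, and Eya1 by 1.70 and 1.36. Of the glutamatergic genes 3 rose and 0 fell of 8 in knockdown cells, and 3 and 1 in control cells. These counts are near the shares of all genes called, 48.8% and 48.6%. The median difference of the list was -0.012 and 0.057, beside -0.068 and -0.042 over all genes. The 3 glutamatergic genes that rose with either construct were the AMPA receptor genes Gria2 (0.84 and 0.86) and Gria1 (0.38 and 0.39) and the cortical factor Tbr1 (0.37 and 0.33). Slc17a7, a vesicular glutamate transporter gene, was the 1 that fell (-0.76 ± 0.15, SE). Neither list had a call in a knockdown comparison.

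Replicates of a group varied together for several members. In knockdown NPC replicate 2 held the highest value for 7 of the 8 members, the exception being Neurod6, while it was the highest for 38.1% of all genes. It lay above its group mean by 0.64 for Neurog1, 0.44 for Neurod4 and 0.35 for Nhlh2. The neuron markers did not follow, with a mean of 10.04, 10.01 and 10.12 on knockdown NPC replicates 1, 2 and 3. The progenitor markers averaged 11.13, 11.21 and 11.18. In the other groups no replicate was highest for more than 5 of the 8. Replicate 2 held the lowest value for 5 of the 8 in control NPC and for 5 in control ESC. It was the lowest for 38% and 40.3% of all genes in these groups.

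**Figure D5:**
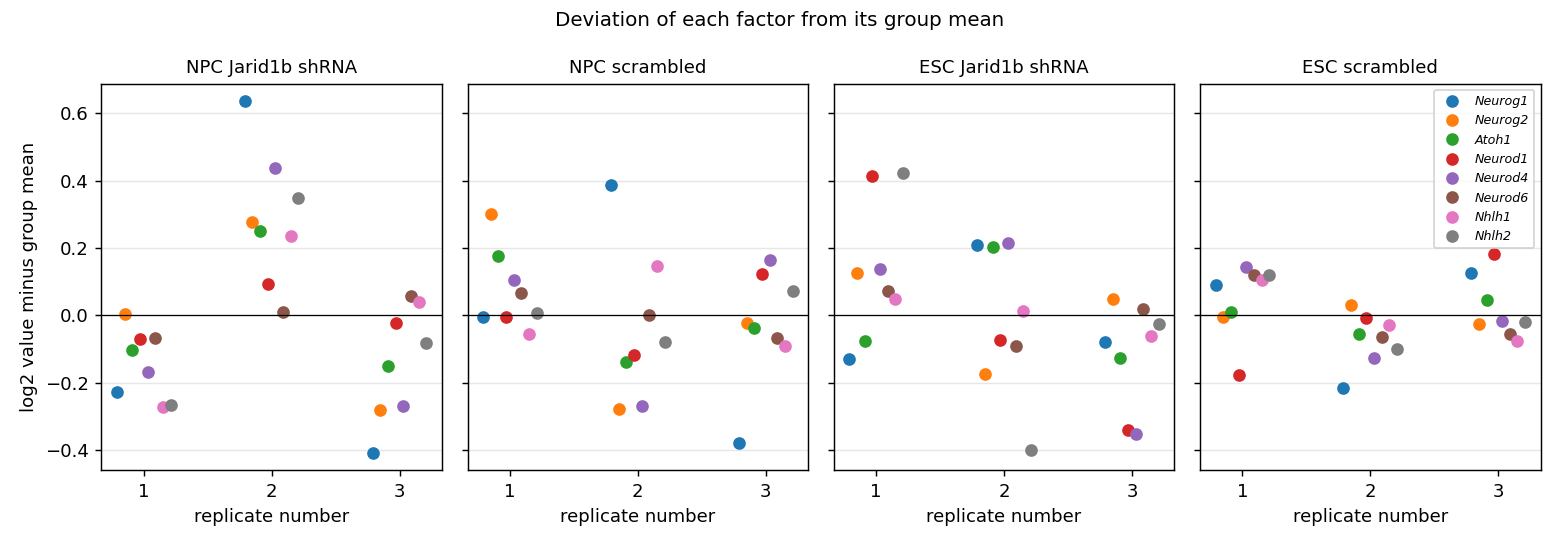
Log2 value minus group mean (vertical axis) of each factor on each replicate (horizontal axis), in the 4 groups; each point is 1 array and 1 factor. In knockdown NPC the points of replicate 2 lie above 0 for all 8 factors. In control ESC they lie below 0 for every factor but Neurog2, and in control NPC they lie on both sides.

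The likeness of 2 genes was measured as the root mean square difference of their log2 profiles over the 12 arrays, each centred on its own mean, for the 7 members whose group means spanned at least 1. Within the family the closest pair was Neurod4 and Nhlh1, at 0.31, followed by Neurog1 and Nhlh2, at 0.34. Neighbours outside the family were then taken, passing over symbols of unnamed gene models (Gm with digits, LOC, or ending in Rik). The nearest to Nhlh1 were Nr2f2 (0.13), Ebf3 (0.16) and Rfx4 (0.17), and to Neurod4 they were Zic1 (0.18), Lgr5 (0.25) and Hoxa5 (0.27). The nearest to Neurog1 were Gdf11 (0.26), Epha7 (0.26) and Plekho1 (0.27), and to Neurog2 they were Lratd1 (0.18), Lats1 (0.18) and Pcdhb2 (0.19). Tox (0.22), Zfp521 (0.22) and Hmga2 (0.22) were nearest to Nhlh2.

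The members called in a knockdown comparison had other neighbours. Nearest to Neurod1 were Gucy1a2 (0.18), Slc39a8 (0.19) and the imprinted gene Peg10 (0.19). Gucy1a2 averaged 8.84 in knockdown NPC, 9.02 in control NPC, 7.35 in knockdown ESC and 8.21 in control ESC, the same order of groups as Neurod1. Nearest to Atoh1 were Snn (0.15), Sesn3 (0.19) and Olig2 (0.20), a bHLH factor of motor neuron progenitors. Olig2 averaged 6.34 in knockdown NPC, 6.84 in control NPC, 5.86 in knockdown ESC and 6.06 in control ESC. These likenesses describe the 12 arrays and carry no test.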

How the data were processed

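Total RNA of 12 samples was hybridised to Affymetrix mouse gene arrays. The authors deposited values on the log2 scale. The tools affy, RMA and limma are named, per the submitters' processing notes, without versions. Such values have had background correction, quantile normalization and probe summary, and small signals are compressed. Precision is limited by having 3 arrays a group. The table holds 21212 probe sets, of which 18786 had 1 symbol in the platform annotation, 6 several and 2420 none listed. Symbols were compared with RefSeq (18775 matched, 0 changed), and the highest-mean probe set of a gene was used. Group means were fitted in limma 3.58.1 (R 4.3.3) to the 12 arrays together (8 residual and 4.81 prior degrees of freedom, two-sided tests). Intervals are at 95%. The steps were tested on simulated data.

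The members and the 7 related and 7 marker lists were chosen with earlier results of these data known. Some lists share genes, so their counts are not independent. Pax6 and Sox1, for example, are both upstream regulators and progenitor markers, and Dcx, Stmn2 and Elavl3 are both targets and neuron markers. Of each related list, called genes up to 4 with the smallest p in each contrast are named, with their values in both constructs; any other gene was picked with its values known. Marker lists are given as counts and mean levels, with Stmn2 also named. Members absent from a list's count were not analysed here.

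Replicate numbers come from the titles. Deviations of same-numbered control NPC and control ESC arrays from their group means had gene-wise correlations of 0.27, 0.29 and 0.33, so the numbers may pair those arrays, a reading of the data and not of the labels. Reported values come from the fit without a replicate block, and the fit with it is an alternative. No other contrast had all 3 pairs above 0.1. No 2 arrays of a group shared over 0.311% identical values, and each was counted. Alternatives are given in the closing section.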

Additional observations from a re-analysis of the deposited data

Results flagged for a closer look

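A difference between the knockdown effect in NPC and that in ESC passed limma's test for 6 genes named above, none of them a member of the family. For Kdm5b the effects of -0.76 in NPC and -1.73 in ESC differed by 0.96 (adjusted p = 0.0172). For Id3 the effects of 0.36 and -1.52 differed by 1.88 (adjusted p = 0.0151). For Id1 the effects of 0.37 and -1.07 differed by 1.44 (adjusted p = 0.0377), and for Id2 those of 0.065 and -0.92 by 0.98 (adjusted p = 0.0492). For Btg2 the effects of 0.55 and -0.69 differed by 1.24 (adjusted p = 0.0185), and for Sox11 those of -0.060 and -0.77 by 0.71 (adjusted p = 0.0406). The call of Id3 held without any 1 array (adjusted p up to 0.0494). That of Kdm5b was lost without control ESC replicate 3 (0.0591) or knockdown NPC replicate 2 (0.0512), and that of Btg2 without knockdown ESC replicate 3 (0.0625) or knockdown NPC replicate 2 (0.0554). Id2 (adjusted p up to 0.141) and Sox11 (up to 0.0977) were lost without any 1 array other than control ESC replicate 1. Sox11 was also lost with a replicate block (adjusted p = 0.0523) and with median centring (0.0536), and Id2 with median centring (0.0612), quantile normalization (0.0681) and adjustment over all probe sets (0.0526). Id1 (up to 0.0998) was lost without any 1 array other than control ESC replicate 1, control NPC replicate 2 or knockdown NPC replicate 3.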

How the results depend on the processing

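Of 875 recomputed values of the members' 40 differences, 846 kept direction and side of the threshold, 2 lost a call, 3 gained one, and 24 changed sign, in 6 uncalled differences. The number of members called between NPC and ESC was 7 with a replicate block, and the replicate block changed no member's call. In control cells it was 8 with an intensity trend and robust prior, where Neurod6 was called lower in NPC (-0.19, adjusted p = 0.0483). Members called were 0 from the 6 NPC arrays alone (1 with all 12; 0 to 1 leaving out 1 array), and 1 with array weights for the difference of knockdown effects (0 without; 0 to 1 leaving out 1 array). That difference needs all 12 arrays. It changed sign for Neurog2 (-0.15 with array weights, -0.013 with median centring) and Nhlh2 (-0.0045 and -0.038). Leaving out 1 array it ran from -0.11 to 0.18 for Neurog2, -0.20 to 0.21 for Nhlh2, -0.24 to 0.28 for Neurog1 and -0.27 to 0.085 for Neurod4, and for Kdm5b from 0.87 to 1.07 (0.96, not called at 0.01). Neurod4's knockdown effect ran from -0.18 to 0.11 in ESC and -0.34 to 0.017 in NPC, and in NPC that of Id2 from -0.012 to 0.16, Hes6 from -0.056 to 0.036 and Dll1 from -0.019 to 0.26. With array weights, calls in knockdown ESC were 6 inhibitors, 4 upstream, 6 target and 1 sensory genes, 1 other bHLH gene in NPC, and 4 targets for the difference of effects. Median centring and quantile normalization each gave 1 other bHLH call in NPC. The 6 ESC arrays alone gave 1 other bHLH, 1 upstream and 0 target calls, and a threshold of 0.01 gave 1 upstream and 0 target calls in ESC and 0 inhibitor, 0 upstream and 0 target calls for the difference of effects. Upstream calls there were 0 also with the replicate block or median centring. Glutamatergic calls were 1 in knockdown and 2 in control cells with the low-value filter or at 0.01. Leaving out 1 array gave, in knockdown ESC, 2 to 5 inhibitor, 1 to 3 upstream, 0 to 5 target and 0 to 1 sensory calls, in NPC 0 to 1 other bHLH calls, for the difference 1 to 4 inhibitor, 0 to 1 upstream and 0 to 4 target calls, and 1 to 3 glutamatergic calls between NPC and ESC in knockdown cells. Over all genes, calls in ESC were 979, against 2887 with array weights, 500 from 6 arrays, 201 at 0.01 and 193 to 1536 leaving out 1 array. In NPC they were 194, against 29 from 6 arrays, 64 at 0.01 and 83 to 247. For the difference they were 267, against 152 with the replicate block, 955 with array weights, 18 at 0.01 and 35 to 546. The cause was not tested. The low-value filter kept 14207 genes and left out Neurod6, whose signal near the floor limits what can be said.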
